A study of Mus musculus with 18 samples.

Results

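The Mas-related G protein-coupled receptors (Mrgpr) are a family of receptors of small sensory neurons, several of which detect itch-provoking compounds. Every row of the deposited count table whose symbol begins with Mrgpr was taken, whatever its values. This gave 9 of 15730 genes, namely Mrgpra2a, Mrgpra2b, Mrgpra3, Mrgprb4, Mrgprb5, Mrgprd, Mrgpre, Mrgprf and Mrgprx1. They were followed through 18 RNA sequencing samples of dorsal root ganglia, which hold the cell bodies of the sensory neurons, taken from C57BL/6 mice aged 6 to 8 weeks. There were 6 groups of 3 samples, and every sample pooled the sciatic ganglia of 2 mice, collected 24 hours after surgery. Replicates were pools of different mice, so the spread between them holds differences between animals as well as technical error.

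LAM mice had a laminectomy, the removal of bone that exposes the spinal cord, and DCA mice had in addition an injury of the dorsal columns, where the central branches of these neurons run. Sham_Saline mice had sham surgery at the sciatic nerve with saline, and Sham_H2O2 mice had the sham surgery with 13 mM hydrogen peroxide, an oxidant. SNA_Saline mice had the sciatic nerve injured in saline, and SNA_NAC mice had it injured in 30 mM N-acetyl-cysteine, a thiol antioxidant. The labels name no transgene or mutation. The tissue is a whole ganglion of neurons, glia, vessels and connective tissue. In such bulk samples, fewer cells of a type and less RNA per cell cannot be told apart.

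In skin-innervating fibres these receptors couple mainly to the Gq and Gi classes of G proteins, and the signal opens channels such as Trpa1 and Trpv1. Mrgpra3 is the receptor for the itch-inducing drug chloroquine and marks a class of itch-selective C fibres, in which Mrgprx1 (long called Mrgprc11), a receptor for fragments of adrenal medulla peptides, is also found. Mrgprd responds to beta-alanine and marks the non-peptidergic nociceptors of the epidermis, and Mrgprb4 marks C fibres that respond to stroking of hairy skin. Mrgpre and Mrgprf are orphan receptors.

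All 9 genes lie on chromosome 7 of the mouse build mm10 (GRCm38). By the GENCODE M21 annotation, 6 lie on the minus strand between positions 47426328 and 48199288. These are, in order, Mrgpra2a (47426328 to 47452139), Mrgpra2b (47463806 to 47528862), Mrgpra3 (47588950 to 47601372), Mrgprx1 (48020971 to 48027597), Mrgprb5 (48167983 to 48169019) and Mrgprb4 (48198070 to 48199288). The other 3 lie farther along, Mrgpre on the minus strand (143778363 to 143784500), and Mrgprf (145300828 to 145309557) and Mrgprd (145314835 to 145324086) on the plus strand. Mrgpra2a and Mrgpra2b are near-identical copies, with coding sequences of 996 bases that differ at 2 positions, A351G and G890A, counted from the A of the start codon with the Mrgpra2a base first. The stretches of 61 coding bases around these positions are shown because they bear on how far reads of the 2 copies can be told apart, with the differing base in capitals. They are read 5′ to 3′ on the minus strand, at chr7:47427128-47427188 and chr7:47464602-47464662 for position 351, and at chr7:47426589-47426649 and chr7:47464063-47464123 for position 890.
Mrgpra2a, position 351: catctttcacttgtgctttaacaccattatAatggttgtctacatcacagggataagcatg
Mrgpra2b, position 351: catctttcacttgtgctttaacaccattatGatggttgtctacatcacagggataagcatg
Mrgpra2a, position 890: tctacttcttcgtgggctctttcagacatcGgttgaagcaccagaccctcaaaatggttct
Mrgpra2b, position 890: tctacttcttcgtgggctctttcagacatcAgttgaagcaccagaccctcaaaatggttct

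Windows of 100 bases, the read length, that occur in both genes made up 73.4% of the windows of the longest Mrgpra2a transcript and 71.8% of those of Mrgpra2b, and none of the windows of the other 7 genes was shared with another gene. How reads that fit both copies were counted is not given in the sources used here, so the split of counts between Mrgpra2a and Mrgpra2b is uncertain. In an alignment of the coding sequences, the next closest pairs were Mrgprb4 and Mrgprb5 with 84.5% of columns identical and Mrgpra2a and Mrgpra3 with 80.8%, and the farthest pair was Mrgprb4 and Mrgprf with 51.6%. RefSeq promoter windows on GRCm38, from 250 bases before to 50 bases after a gene's start, were given for 7 of the 9 genes (not Mrgpra3 and Mrgprf). The windows of Mrgpra2a and Mrgpra2b differed at 0 of 300 bases. The Mrgpra2b window, at 47489533 to 47489832, lies inside the GENCODE span of that gene, which ends at 47528862. It is therefore not at the outermost start given above. The motif TGTGGT, bound by RUNX factors, was searched on both strands and occurred in 0 of the 7 windows and in 16.8% of 32851 windows of all genes. With 7 windows, of which those of Mrgpra2a and Mrgpra2b are the same sequence, this count cannot show that the motif is rarer here.

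Levels were compared between genes as FPKM (reads scaled by transcript length and sequencing depth), the length-scaled unit that the authors deposited. Mrgprd had the highest mean level over the 18 samples, 28.8 FPKM, with a range of 18.8 to 53.4. It was followed by Mrgprx1 with a mean of 9.74 FPKM (6.60 to 17.2), Mrgpra3 with 8.52 (5.95 to 12.1) and Mrgpre with 6.18 (4.18 to 7.76). Mrgprb4 had a mean of 4.92 FPKM (2.14 to 9.31), Mrgprb5 of 4.16 (2.71 to 8.16), Mrgpra2b of 3.90 (2.58 to 4.87), Mrgpra2a of 1.44 (0.589 to 2.01) and Mrgprf of 0.793 (0.227 to 1.43). In this order the ranges of neighbours overlapped except between Mrgprd and Mrgprx1 and between Mrgpra2b and Mrgpra2a, the latter being the pair whose reads are hard to assign. Mrgprd made up 41.6% of the summed FPKM of the 9 genes on average, between 33.7% and 49.7% in the single samples.

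**Figure D1:**
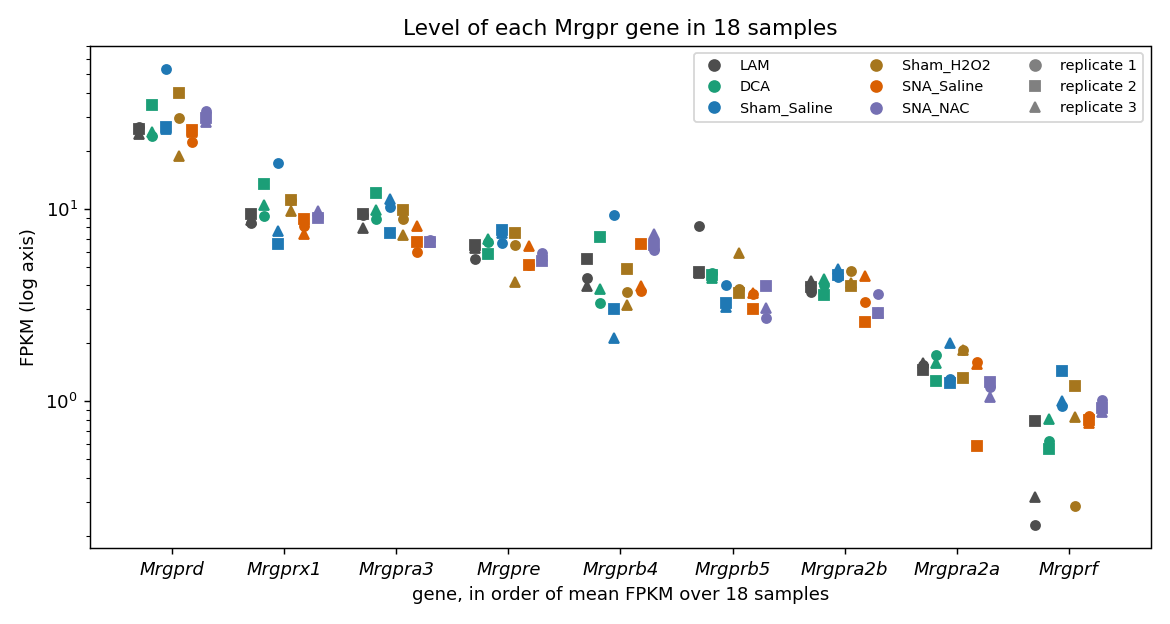
FPKM of each Mrgpr gene (log axis) in the 18 samples, with genes in order of their mean, colours for groups and marker shapes for replicates. Mrgprd lies above every other gene, and Mrgpra2a and Mrgprf lie at the bottom with means of 1.44 and 0.793 FPKM.

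A further 12 features whose symbol begins with Mrgpr are listed in the FPKM table and not in the count table, whose lowest mean count was 10.1. Among them are Mrgprb2, the receptor by which mast cells respond to cationic peptides and drugs, with at most 0.201 FPKM in any sample, Mrgprb1 with at most 0.194 FPKM, and Mrgprb3, which is listed at 0 in every sample. Of the 10 mast cell markers looked up, 7 were in the count table and Tpsab1, Fcer1a and Ms4a2 were not. The mast cell protease transcripts Cpa3, Cma1, Mcpt4 and Tpsb2 averaged between 1.35 and 4.11 CPM. CPM is the count scaled to library size by the trimmed mean of M-values, and it is the level used from here on within a gene. Mrgprx3-ps, a pseudogene by its name, is the exception among the 12 with a mean of 33.5 FPKM.

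Total counts per sample ran from 6472476 (Sham_H2O2 replicate 3) to 42435331 (SNA_NAC replicate 1), and the common biological coefficient of variation was 17.4%. Sham_Saline replicate 1 was the highest of the 18 samples for Mrgprb4, Mrgprd and Mrgprx1. The 3 Sham_Saline pools also differed in the summed level of 6 skeletal muscle markers, at 90.0, 1171 and 6.11 CPM in replicates 1 to 3. The 9 pan-neuronal markers looked up, among them Tubb3 and Prph, were all in the table and summed to 6311 to 10737 CPM over the 18 samples; none was at 0. How log2 CPM depended on the GC share of a transcript also differed between samples, with a slope from -0.22 in Sham_H2O2 replicate 3 to 0.43 in Sham_Saline replicate 2, per standard deviation of GC share over 15648 genes. Values without Sham_Saline replicate 1 are given beside the comparisons with Sham_Saline. This library was singled out after the receptor values were seen. Leaving it out lowers the sham level of Mrgprb4, Mrgprd and Mrgprx1, so calls made without it are no independent result.

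Sciatic nerve injury was compared with the sham procedure to find genes that respond to a peripheral axon injury. Of the 9 Mrgpr genes, 8 were lower in SNA_Saline than in Sham_Saline, with a median log2 fold change of -0.36, but none passed the test. Over all genes, 53.5% were lower and the median was -0.03. Leaving out Sham_Saline replicate 1, 6 of 9 Mrgpr genes were lower and their median was -0.25. Several marker lists were lower in the same comparison, with medians of -0.49 for smooth muscle and pericytes (7 of 8 genes below 0) and -1.57 for skeletal muscle (6 of 6). Medians were -0.33 for red blood cells (5 of 5), -0.37 for pan-neuronal genes (6 of 9), -0.27 for A-fibre neurons (8 of 10) and -0.26 for Schwann cells (4 of 6). Other lists lay above 0, at 0.20 for macrophages (4 of 6 genes above 0), 0.18 for satellite glia (3 of 4) and 0.07 for peptidergic nociceptors (6 of 9). Fibroblasts were at -0.03, mast cells at -0.04, non-peptidergic nociceptors at 0.02 and low-threshold C fibres at -0.01. Smooth muscle markers summed to 383 to 422 CPM in Sham_Saline and 419 to 485 CPM in SNA_Saline, a direction opposite to their median, and pan-neuronal markers to 6821 to 10737 and 6704 to 7606 CPM. Their part in the Mrgpr values was not tested. The 2 genes at which all SNA_Saline samples lay below all Sham_Saline samples were Mrgpre and Mrgprf. Such separation towards lower values occurred in 8.8% of all genes.

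Mrgpra3 measured 13.2, 9.81 and 14.3 CPM in the Sham_Saline samples and 7.92, 8.97 and 10.5 CPM in the SNA_Saline samples. The groups overlapped, since Sham_Saline replicate 2 lay below the highest SNA_Saline library. The log2 fold change was -0.44 with a standard error (SE) of 0.17 and an adjusted p of 0.164 (edgeR quasi-likelihood test, Benjamini-Hochberg over all 15730 genes, n = 3 per group). Libraries numbered alike ran on 1 lane of the sequencer, and the difference within lanes was -0.72, -0.13 and -0.44. The value of Mrgpra3 was -0.39 without Sham_Saline replicate 1. Mrgprx1, found in the same fibres, measured 20.4, 7.87 and 8.89 CPM in Sham_Saline and 9.96, 10.8 and 8.77 CPM in SNA_Saline. Here 1 sham library, replicate 1, was high, and the other two lay within or below the range of the injured samples. The log2 fold change of Mrgprx1 was -0.34 (SE 0.26, adjusted p = 0.430 by edgeR), and 0.23 without Sham_Saline replicate 1.

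Mrgprd measured 166, 83.2 and 79.3 CPM in Sham_Saline and 71.7, 82.8 and 78.1 CPM in SNA_Saline. Again replicate 1 of the sham group was by itself. The log2 fold change of -0.50 (SE 0.25, adjusted p = 0.250 by edgeR) became -0.07 without that library, and the differences within lanes were -1.21, -0.01 and -0.02. Mrgprb4 measured 8.96, 2.95 and 2.04 CPM in Sham_Saline and 3.70, 6.59 and 3.85 CPM in SNA_Saline, so its highest and its lowest values were both sham samples. For Mrgprb4 the log2 fold change was -0.02 with a 95% interval of -0.93 to 0.89, and 0.86 (adjusted p = 0.0811 by edgeR) without Sham_Saline replicate 1. Mrgprb5, among the 9 genes the closest to Mrgprb4 in coding sequence, measured 4.15, 3.37 and 3.12 CPM in Sham_Saline and 3.83, 3.24 and 3.78 CPM in SNA_Saline. The groups overlapped, and the log2 fold change of Mrgprb5 was 0.03 (95% interval -0.50 to 0.57), and 0.16 without Sham_Saline replicate 1.

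Mrgpra2b measured 5.91, 6.06 and 6.38 CPM in Sham_Saline and 4.49, 3.57 and 5.99 CPM in SNA_Saline, and the groups overlapped through 1 injured sample, replicate 3. The log2 fold change was -0.37 (SE 0.17, adjusted p = 0.218 by edgeR), and -0.39 without Sham_Saline replicate 1. Its near-identical copy Mrgpra2a measured 1.62, 1.56 and 2.44 CPM in Sham_Saline and 2.05, 0.757 and 1.92 CPM in SNA_Saline, where the lowest value rests on 7 reads. This copy had a log2 fold change of -0.17 with a 95% interval of -0.78 to 0.43, and of -0.25 without that sham library.

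Of the orphan receptors, Mrgpre measured 24.8, 29.4 and 27.6 CPM in Sham_Saline and 19.8, 19.996 and 24.0 CPM in SNA_Saline. The groups did not overlap, and the log2 fold change was -0.36 (SE 0.15, adjusted p = 0.191 by edgeR), with -0.33, -0.55 and -0.20 within lanes and -0.42 without Sham_Saline replicate 1. Mrgpre, with a GC share of 55.1%, was also the receptor gene whose level followed the GC slope of the samples most closely, as given with the relations between samples. When the fit was given GC and length offsets, an alternative added once the values were known, its log2 fold change was -0.08, and that of Mrgpra3 was -0.56 (adjusted p = 0.0564 by edgeR). Mrgprf measured 2.10, 3.20 and 2.17 CPM in Sham_Saline and 1.91, 1.84 and 1.71 CPM in SNA_Saline, without overlap. Its log2 fold change was -0.46 (SE 0.37, adjusted p = 0.449 by edgeR), at 17 to 76 reads per sample, and -0.58 without Sham_Saline replicate 1.

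**Figure D2:**
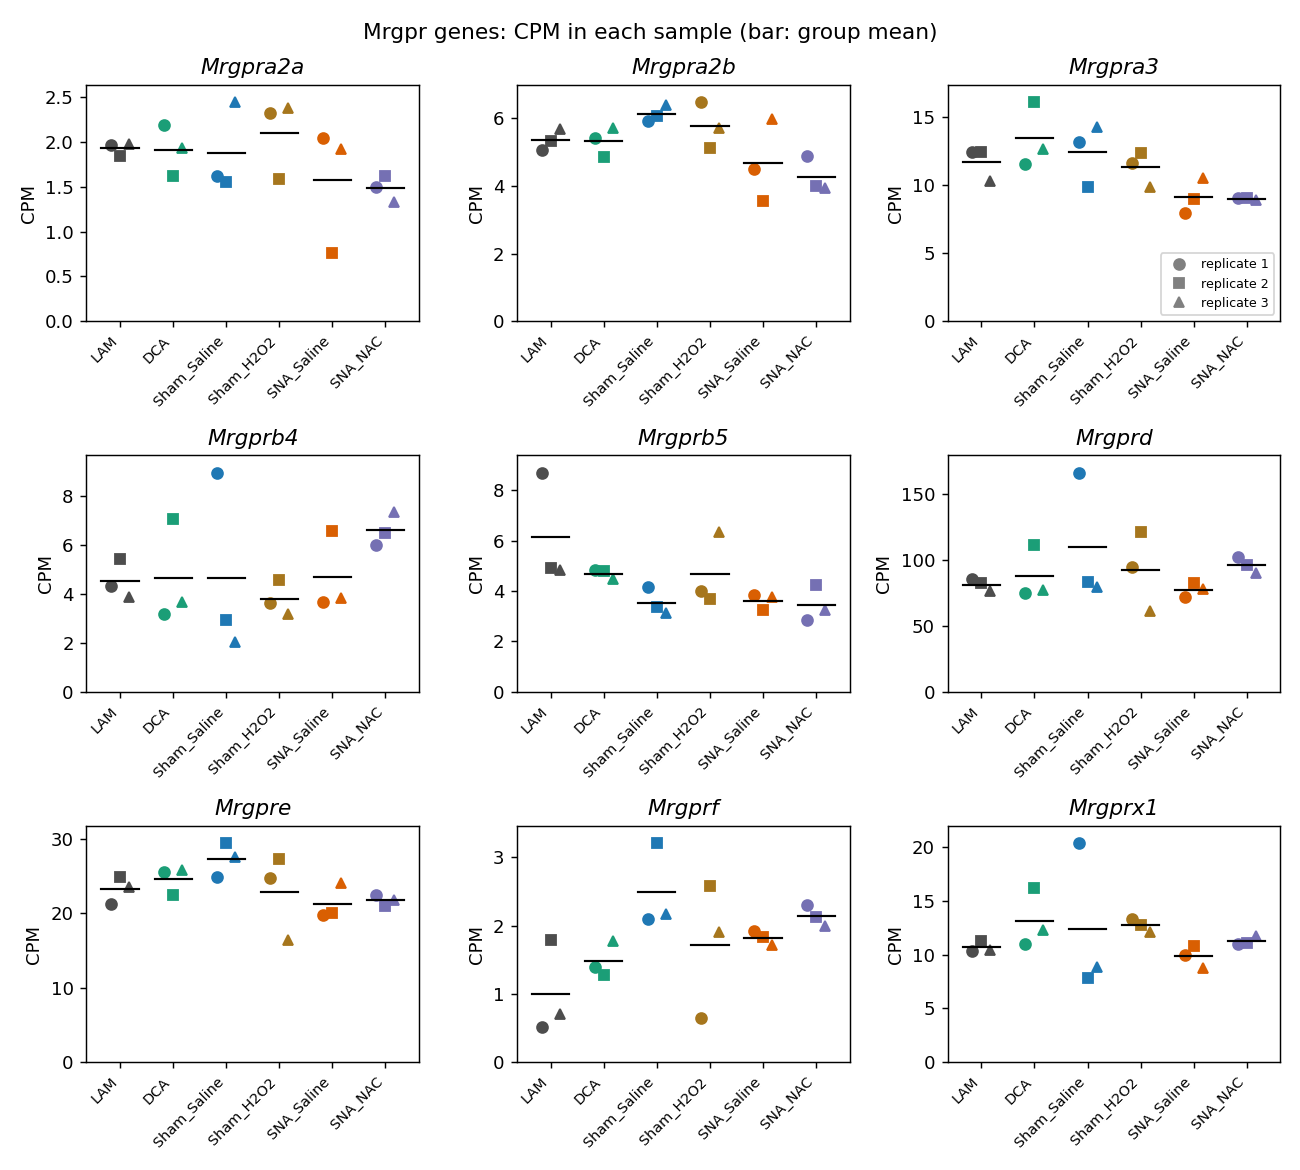
CPM of the 9 Mrgpr genes in each of the 18 samples, by group, with a marker shape for each replicate and a bar at the group mean. Sham_Saline replicate 1 is the highest sample for Mrgprb4, Mrgprd and Mrgprx1, at 8.96, 166 and 20.4 CPM.

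In this comparison edgeR called 0 of the 9 genes at an adjusted p under 0.05, against 2.73% of all genes. At an unadjusted p under 0.05 it had 3 of 9 (Mrgpra2b, Mrgpra3 and Mrgpre), against 22.5% of all genes. DESeq2 called 0 of 9, against 5.49% of all genes. Without Sham_Saline replicate 1, edgeR again called 0, against 16.2% of all genes.

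Dorsal column injury was compared with laminectomy, which asks what an injury of the central branch does to the same neurons. None of the Mrgpr genes passed, and the values lay on both sides of 0 with a median log2 fold change of 0.08. Mrgprb5, 1 of 9 genes, was lower in all DCA samples than in all LAM samples, which holds towards lower values for 9.85% of all genes. It measured 8.70, 4.93 and 4.8344 CPM in LAM and 4.8255, 4.78 and 4.47 CPM in DCA. The separation was nearly a tie, since LAM replicate 3 and DCA replicate 1 were at almost the same level. The log2 fold change of Mrgprb5 was -0.36 (SE 0.24, adjusted p = 0.624 by edgeR). LAM replicate 1 was the highest of all 18 samples, and without it the log2 fold change was -0.07.

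Mrgprf measured 0.518, 1.79 and 0.705 CPM in LAM and 1.39, 1.28 and 1.77 CPM in DCA, with 5 reads in the lowest sample, and the groups overlapped. The fitted log2 fold change was 0.54 with a 95% interval of -0.31 to 1.39. Mrgprx1 measured 10.4, 11.3 and 10.5 CPM in LAM and 11.0, 16.2 and 12.3 CPM in DCA, and Mrgpra3 measured 12.4, 12.4 and 10.3 CPM in LAM and 11.5, 16.1 and 12.7 CPM in DCA. DCA replicate 2 was the highest of these 6 samples for both itch fibre receptors. Their log2 fold changes were 0.29 (95% interval -0.26 to 0.84) and 0.19 (-0.16 to 0.54). For this comparison edgeR called 0 of 9 genes and 0% of all genes, and 0 of 9 and 5.04% of all genes had an unadjusted p under 0.05. DESeq2 called 0 of 9 and 0.0127% of all genes.

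The responses to the 2 injuries were then set against each other by testing the difference between the sciatic and the dorsal column fold changes. The value was below 0 for 8 of 9 genes, against 51.3% of all genes, and 0 of 9 passed. Mrgpra3 came nearest, at -0.63 (SE 0.23, 95% interval -1.13 to -0.14, adjusted p = 0.101 by edgeR). It kept an adjusted p between 0.0578 and 0.254 in the 22 alternatives computed for it, and it was at -0.58 without Sham_Saline replicate 1. Mrgprf was at -1.0 (SE 0.55, adjusted p = 0.215 by edgeR) and Mrgpre at -0.44 (SE 0.21, adjusted p = 0.172 by edgeR), and without that library they were at -1.12 and -0.50. The difference for Mrgprd was -0.61 and for Mrgprx1 -0.62, and these became -0.18 and -0.05 without Sham_Saline replicate 1. Of all genes, 1.61% were called by edgeR in this test, and 31.4% had an unadjusted p under 0.05, beside 1 of 9 Mrgpr genes (Mrgpra3). DESeq2 called 0 of 9, against 11% of all genes. Without Sham_Saline replicate 1, 29.2% of all genes and 0 of the 9 were called.

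N-acetyl-cysteine at the injured nerve was compared with saline to ask whether an antioxidant alters the injury response. SNA_NAC samples lay above SNA_Saline samples without overlap for Mrgprd, Mrgprf and Mrgprx1, 3 of 9 genes, against 9.24% of all genes in that direction, but the differences were small and none passed. Mrgprd measured 102, 95.9 and 90.2 CPM in SNA_NAC, beside the 71.7 to 82.8 CPM of SNA_Saline. Its log2 fold change was 0.31 (SE 0.26, adjusted p = 1.00 by edgeR), and within lanes the differences were 0.51, 0.21 and 0.21.

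Mrgprx1 measured 11.0, 11.1 and 11.8 CPM in SNA_NAC, a log2 fold change of 0.20 (95% interval -0.36 to 0.75). Mrgprf measured 2.30, 2.13 and 1.99 CPM, a log2 fold change of 0.24 (95% interval -0.56 to 1.03). The 3 SNA_NAC samples thus lay close together, and the intervals come from a spread that all groups share. Mrgprb4, the receptor of stroking-responsive fibres, measured 6.00, 6.51 and 7.34 CPM and had the largest value of the 9 genes, a log2 fold change of 0.51 (SE 0.42), although SNA_Saline replicate 2 lay within its range. For this comparison edgeR called 0 of 9 genes and 0% of all genes, and 0 of 9 and 2% of all genes had an unadjusted p under 0.05. DESeq2 called 0 of 9 and 0% of all genes.

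Hydrogen peroxide at the uninjured nerve was compared with saline. No Mrgpr gene separated the groups, which 5.43% of all genes did in either direction, and none passed. Mrgprd measured 94.5, 121 and 61.2 CPM in Sham_H2O2, a range that took in 2 of the 3 sham values. Its log2 fold change was -0.24 (95% interval -0.78 to 0.30), and 0.20 without Sham_Saline replicate 1. Mrgprx1 measured 13.3, 12.8 and 12.1 CPM, so that the 3 Sham_H2O2 samples lay between Sham_Saline replicate 1 and the other two, with a log2 fold change of 0.04, and of 0.61 (adjusted p = 0.110 by edgeR) without that library.

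Mrgpre measured 24.7, 27.3 and 16.4 CPM, the last being the lowest of all 18 samples and from the library with the fewest counts. Fitted over all samples, the log2 fold change was -0.24 (SE 0.15). Mrgprb5 measured 4.01, 3.67 and 6.36 CPM, a log2 fold change of 0.35 (SE 0.26). Mrgprf measured 0.647, 2.58 and 1.91 CPM, with 5 reads in the lowest sample, and had a log2 fold change of -0.44 (SE 0.38). These 3 values were -0.30, 0.47 and -0.54 without Sham_Saline replicate 1. For this comparison edgeR called 0 of 9 genes and 0% of all genes, and 0 of 9 and 9.15% of all genes had an unadjusted p under 0.05. DESeq2 called 0 of 9 and 0.0254% of all genes.

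Injury with N-acetyl-cysteine was also set against Sham_Saline, the control that the sciatic and the peroxide comparisons share, so these results are not independent of each other. Mrgpra2b, Mrgpra3 and Mrgpre (3 of 9 genes) lay lower without overlap, against 9.68% of all genes in that direction, and none passed. Mrgpra2b measured 4.88, 4.004 and 3.94 CPM in SNA_NAC, all below the lowest sham value of 5.91 CPM. Its log2 fold change was -0.51 (SE 0.17, adjusted p = 0.0989 by edgeR), beside -0.37 for injury in saline, and within lanes it was -0.27, -0.59 and -0.68. It was called with the GC and length offsets (-0.55, adjusted p = 0.0461 by edgeR) and without Sham_Saline replicate 1 (-0.53, adjusted p = 0.0346 by edgeR). Of all genes, 7.8% and 37.3% were called in these fits.

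Mrgpra3 measured 9.06, 9.07 and 8.88 CPM in SNA_NAC, a spread far narrower than in the sham group. Its log2 fold change was -0.46 (SE 0.16, adjusted p = 0.115 by edgeR), beside -0.44 for injury in saline, with -0.53, -0.11 and -0.68 within lanes and -0.41 without Sham_Saline replicate 1. Mrgpre measured 22.4, 21.02 and 21.9 CPM and had a log2 fold change of -0.32 (SE 0.15, adjusted p = 0.174 by edgeR), and of -0.03 with the GC and length offsets and -0.39 without that sham library. The comparison leaned on 1 sham library for the genes in which that library was high. The log2 fold change of Mrgprb4 went from 0.49 (adjusted p = 0.422) to 1.38 (adjusted p = 0.0080) without Sham_Saline replicate 1 by edgeR, that of Mrgprx1 from -0.14 to 0.43 (adjusted p = 0.0386) and that of Mrgprd from -0.19 to 0.24.

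With all samples edgeR called 0 of 9 genes in this comparison, against 3.32% of all genes. At an unadjusted p under 0.05 there were 3 of 9 (Mrgpra2b, Mrgpra3 and Mrgpre), against 27.6% of all genes. DESeq2 called 0 of 9, against 7.77% of all genes. Without Sham_Saline replicate 1, edgeR called 3 of 9 (Mrgprb4 and Mrgprx1 higher, Mrgpra2b lower), against 37.3% of all genes. It called 0 of 9 without Sham_Saline replicate 2, against 1.37% of all genes, and 0 of 9 without replicate 3, against 1.98%.

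**Figure D3:**
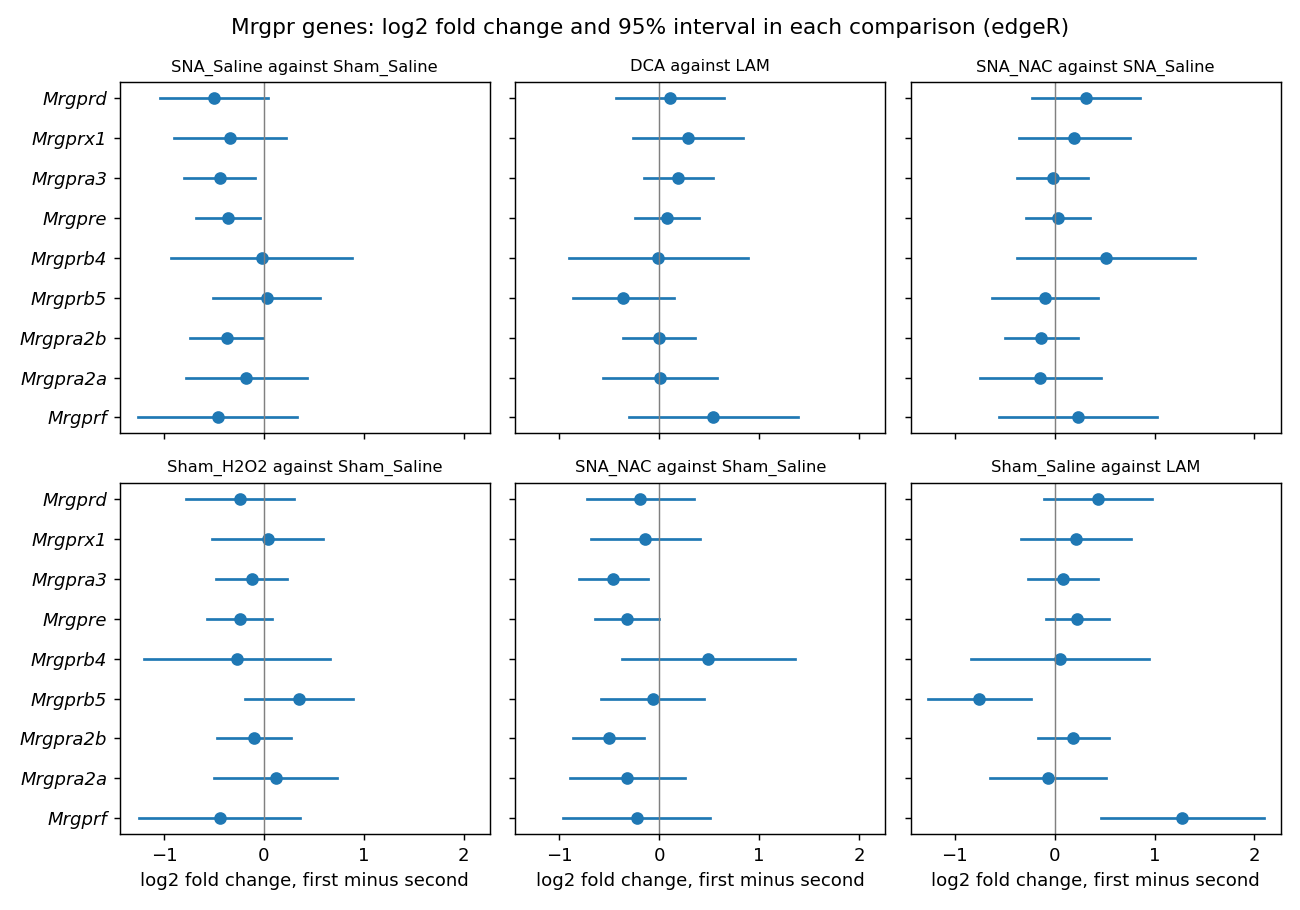
Log2 fold change (points) and 95% interval (lines) of each Mrgpr gene in 6 comparisons, from the edgeR fit over all 18 samples. The intervals of Mrgpra3, Mrgpre and Mrgpra2b lie below 0 in both sciatic injury comparisons with Sham_Saline before adjustment for 15730 genes. These comparisons share the sham samples, and 22.5% (saline) and 27.6% (N-acetyl-cysteine) of all genes had an unadjusted p under 0.05 in them. In Sham_Saline against LAM the intervals of Mrgprf and Mrgprb5 exclude 0, where that share was 30.3%.

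The 2 control operations were set side by side last. Sham_Saline lay above LAM without overlap for Mrgpra2b and Mrgprf, 2 of 9 genes against 16.4% of all genes, and below it for Mrgprb5, 1 of 9 against 14.2%. Mrgprf measured 2.10, 3.20 and 2.17 CPM in Sham_Saline and 0.518, 1.79 and 0.705 CPM in LAM, where the low values are 5 and 21 reads. The fitted log2 fold change was 1.28 (SE 0.39, adjusted p = 0.104 by edgeR). DESeq2 called it (adjusted p = 0.0417), as it did 7.25% of all genes. Over the alternatives it ranged from 0.57 on log2(FPKM + 1) to 1.93 without LAM replicate 2, with an adjusted p of up to 0.460 (edgeR, without Sham_Saline replicate 2). Mrgprb5 measured 4.15, 3.37 and 3.12 CPM in Sham_Saline and 8.70, 4.93 and 4.83 CPM in LAM, a log2 fold change of -0.76 (SE 0.24, adjusted p = 0.104 by edgeR), with -1.05, -0.54 and -0.61 within lanes. It was at -0.48 without LAM replicate 1, its highest sample, and at -0.49 with the GC and length offsets.

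Mrgpra2b was at a log2 fold change of 0.19 (SE 0.17), with 0.22, 0.19 and 0.17 within lanes, and at 0.21 without Sham_Saline replicate 1. Mrgpre measured 21.3, 24.9 and 23.5 CPM in LAM, overlapping the 24.8 to 29.4 CPM of Sham_Saline, and was at 0.23 (SE 0.15, adjusted p = 0.304 by edgeR), with 0.22, 0.24 and 0.23 within lanes. It was at 0.29 without Sham_Saline replicate 1 and at -0.15 with the GC and length offsets. Mrgprd was at 0.43 (SE 0.25), which became 0.0010 without Sham_Saline replicate 1. Same-lane samples deviated together in this comparison. With the replicate number as a block, Mrgprf was at 1.32 and Mrgprb5 at -0.75 (adjusted p = 0.144 for each by edgeR), Mrgpra2b at 0.19 and Mrgpre at 0.23 (adjusted p 0.434 and 0.342), and 6 genes of the whole table were called in place of 11. Here edgeR called 0 of 9 genes, against 0.0699% of all genes. DESeq2 called 1 of 9 (Mrgprf), against 7.25% of all genes. At an unadjusted p under 0.05 there were 2 of 9, against 30.3% of all genes. Without Sham_Saline replicate 1, edgeR called Mrgprf (1.39, adjusted p = 0.0264) and Mrgprb5 (-0.88, adjusted p = 0.0295), against 31.8% of all genes. It called 0 of 9 without Sham_Saline replicate 2, against 0.0381% of all genes, and 0 of 9 without replicate 3, against 0.0254%. Sciatic sham and laminectomy differ in the operation site as well as in treatment of the nerve, and these cannot be told apart.

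Several receptors varied together or in opposite directions over the 18 samples, where differences between the 6 groups also enter. Among 54 relations computed over the 18 samples (36 pairs of genes, and each gene against the GC slope and against the total count), the closest was that of Mrgpre with the GC slope, with Pearson's r = 0.82 (permutation p = 8e-05, adjusted p = 0.0043) and Spearman's rho = 0.87 (permutation p = 1e-05, the smallest that the resamples can give, adjusted p = 0.00054). It was 0.81 without the 2 samples with slopes farthest from the median, and 0.58, 0.92 and 0.86 within the lanes of 6 samples. Its part in the Mrgpre differences was not tested beyond the offsets. The permutation tests were 2-sided with 100000 resamples. The GC slope was computed from the log2 CPM of 15648 genes, Mrgpre among them, so slope and gene are not independent. How many other genes follow it as closely was not tested. Mrgprf had a higher GC share than Mrgpre, 56.8%, and r = 0.43 with the slope.

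The other relations with an adjusted p under 0.05 for r were 4 positive and 3 negative pairs of receptors. After group means were subtracted, r was 0.71 for Mrgpra2a with Mrgpra2b and 0.84 for Mrgprb4 with Mrgprd. It was 0.79 for Mrgprd with Mrgprx1 and 0.90 for Mrgprb4 with Mrgprx1. Sham_Saline replicate 1 was the highest sample for Mrgprb4, Mrgprd and Mrgprx1, far from the other sham samples. Subtracting group means does not remove that library, and r after this step was not computed without it. After the same step r for Mrgprb4 was -0.63 with Mrgpra2a and -0.48 with Mrgpra2b, and for Mrgprb5 with Mrgprf it was -0.25. The near-identical Mrgpra2a and Mrgpra2b had r = 0.73 (permutation p = 0.00045, adjusted p = 0.0121) and rho = 0.52 (permutation p = 0.029, adjusted p = 0.157). Without SNA_Saline replicate 2 and SNA_NAC replicate 3 r was 0.45, and within lanes 0.28, 0.70 and 0.90.

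Mrgprd, Mrgprx1 and Mrgprb4 formed the other positive pairs. Mrgprb4 and Mrgprd had r = 0.66 (permutation p = 0.0024, adjusted p = 0.0259) and rho = 0.64 (permutation p = 0.00456, adjusted p = 0.0436). Without the samples farthest from the median, Sham_Saline replicates 1 and 3, r was 0.58. Within lanes it was 0.92, 0.20 and 0.49.
Mrgprd and Mrgprx1 had r = 0.70 (permutation p = 0.00214, adjusted p = 0.0259) and rho = 0.47 (permutation p = 0.0479, adjusted p = 0.216). Leaving out Sham_Saline replicate 1 and Sham_H2O2 replicate 2 gave r = 0.40, and r was -0.21 in lane 3, so this relation rests on few samples. Mrgprb4 and Mrgprx1 had r = 0.63 (permutation p = 0.00416, adjusted p = 0.0374) and rho = 0.45 (permutation p = 0.0622, adjusted p = 0.224), and r = 0.41 without Sham_Saline replicates 1 and 3. Within lanes it was 0.74, 0.73 and 0.47.

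Mrgprb4 ran opposite to both Mrgpra2 copies. With Mrgpra2a it had r = -0.65 (permutation p = 0.00234, adjusted p = 0.0259) and rho = -0.70 (permutation p = 0.00129, adjusted p = 0.0348), with -0.85, -0.25 and -0.95 within lanes. With Mrgpra2b it had r = -0.60 (permutation p = 0.00738, adjusted p = 0.0498) and rho = -0.65 (permutation p = 0.00416, adjusted p = 0.0436), with 0.13, -0.76 and -0.91 within lanes. Without SNA_Saline replicate 2 and SNA_NAC replicate 3 these r were -0.70 and -0.50. Mrgprb5 and Mrgprf had r = -0.62 (permutation p = 0.00702, adjusted p = 0.0498) and rho = -0.65 (permutation p = 0.00443, adjusted p = 0.0436). Without LAM replicate 1 and Sham_H2O2 replicate 3 their r was -0.52, and within lanes -0.74, -0.65 and -0.34. By rho, Mrgpra2b and Mrgpre also had an adjusted p under 0.05 (rho = 0.64, permutation p = 0.00484, adjusted p = 0.0436). Their r was 0.51 (permutation p = 0.0307, adjusted p = 0.151), and 0.31 after group means were subtracted. Mrgpra2b had r = 0.52 and rho = 0.60 with the GC slope. All values share the same library and depth in a sample.

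**Figure D4:**
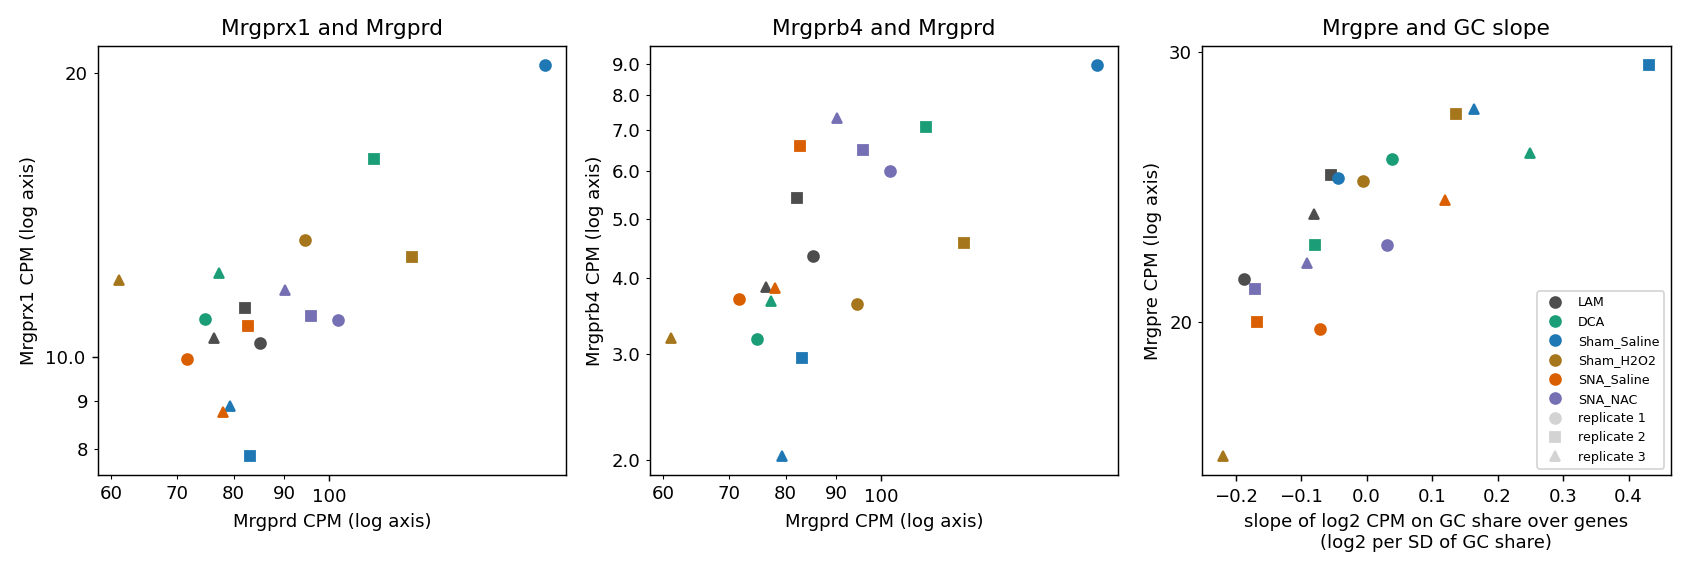
CPM of Mrgprx1 and of Mrgprb4 against CPM of Mrgprd (log axes), and CPM of Mrgpre (log axis) against the GC slope, over 18 samples with colours for groups and shapes for replicates. Sham_Saline replicate 1 lies at the upper right of the first 2 panels, and Mrgpre follows the slope with r = 0.82.

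The genes whose log2 CPM followed each receptor most closely, by Pearson's r over the 18 samples, were taken for the 7 receptors with a mean count of at least 50. For Mrgprd these were Magi1, a scaffold protein of cell junctions (r = 0.95), Exoc4, a subunit of the exocyst (0.95), and Map3k9, a mixed-lineage kinase (0.94). For Mrgprb4 they were the channel subunit Trpc1 (0.93), the syntaxin-binding Stxbp5l (0.93) and the progesterone receptor Pgr (0.92), and for Mrgprx1 Gm15629 (0.90), Fryl (0.88) and Lyrm9 (0.87). For Mrgpra3 they were the sodium channel beta subunit Scn2b (0.87), Defb42 of the beta-defensin family (0.82) and Gm10605 (0.82).

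For Mrgpra2b the 3 genes were the monoacylglycerol lipase Abhd6 (0.84), the potassium channel modifier Kcng1 (0.84) and Rab44 (0.84). Mrgprb5 was most like E130311K13Rik (0.91), Lypd6b (0.88) and Tmem14a (0.87). Mrgpre, whose level followed the GC slope, was most like Dak (0.95), the latrophilin Lphn1 (0.94) and Rnft2 (0.94). These are the highest among all genes of the table for each receptor and carry no test. Spearman's rho for the same pairs ranged from 0.67 (Mrgprx1 with Fryl) to 0.93 (Mrgpre with Dak). After group means were subtracted, r ranged from 0.46 (Mrgpra3 with Gm10605) to 0.97 (Mrgpre with Dak).

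Other genes of the itch pathway were counted against the 2.73% of all genes called after sciatic injury in saline, 430 of 15730. The lists were chosen with earlier results of these data known, so setting their counts beside this share is no test. Of 15 other itch receptors, 1 rose after sciatic injury in saline, Il13ra1, a chain of the receptor for interleukin-13, from 15.2 ± 3.99 CPM in Sham_Saline to 28.5 ± 4.72 CPM in SNA_Saline (SD, n = 3; log2 fold change 0.91, adjusted p = 0.0261 by edgeR). It was not called in 4 of 16 alternatives, among them the fits without Sham_Saline replicate 2, SNA_Saline replicate 1 or SNA_Saline replicate 2 (adjusted p 0.125, 0.140 and 0.130). Of 7 transmitters of itch afferents, 2 rose. The peptide gene Adcyap1 rose from 116 ± 14.0 to 359 ± 57.5 CPM (log2 fold change 1.63, adjusted p = 9.9e-06 by edgeR) and the neurotensin gene Nts from 12.5 ± 2.07 to 29.9 ± 3.67 CPM (1.25, adjusted p = 0.0258). Nts was not called without any 1 of the same 3 libraries (adjusted p 0.0970, 0.110 and 0.118).

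Of 23 genes of Mrgpr signalling (G proteins, phospholipases, arrestins and channels), edgeR called 0 in either direction, with 7 at an unadjusted p under 0.05, against 22.5% of all genes. Of 10 transcription factors of the nociceptor lineage, 1 fell, Prdm12, a regulator of pain-sensing neurons, from 101 ± 4.95 to 73.3 ± 6.65 CPM (-0.47, adjusted p = 0.0144 by edgeR). It was at -0.12 with the GC and length offsets, and was not called without Sham_Saline replicate 2, SNA_Saline replicate 1 or SNA_Saline replicate 2 (adjusted p 0.0675, 0.103 and 0.0903). Of 15 markers of non-peptidergic nociceptors, the class that Mrgprd marks, the GDNF receptor gene Gfra1 rose from 179.6 ± 18.2 to 358 ± 20.1 CPM (1.00, adjusted p = 0.00012 by edgeR). The neurturin receptor gene Gfra2 fell from 130.4 ± 16.4 to 91.1 ± 9.92 CPM (-0.52, adjusted p = 0.0095), and was not called without the same 3 libraries in turn (adjusted p 0.0618, 0.0813 and 0.0655). The median of these 15 markers was 0.02, and the pan-neuronal list had a median of -0.37 with 0 of 9 called.

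With N-acetyl-cysteine, against the same sham samples, Il13ra1 (0.95), Adcyap1 (1.63) and Gfra1 (1.07) rose, and Gfra2 (-0.56), the homeobox gene Hoxd1 (-0.50) and Th, a marker of low-threshold C fibres (-0.92), fell by edgeR. Their adjusted p values were 0.0170, 1.0e-05, 5.6e-05, 0.0052, 0.0296 and 0.0474. Of these, Hoxd1 was not called in 9, Th in 10, Il13ra1 in 4 and Gfra2 in 1 of 16 alternatives. Hoxd1 was at -0.22 with the GC and length offsets, and 3.32% of all genes were called in this comparison. In the difference between injuries, where 1.61% of all genes were called, Adcyap1 and Gfra1 were higher after sciatic injury in all 22 alternatives. The phospholipase gene Plcb3 was lower (adjusted p = 0.0377 by edgeR) and so was Prdm12 (adjusted p = 0.0445), and these calls were lost in 10 and 15 of the 22, with Prdm12 at 0.05 under the GC and length offsets. Between the control operations 0.0699% of all genes were called and, of the genes in the lists, only Spp1, a marker of large A-fibre neurons. Spp1 measured 272 ± 8.68 CPM in Sham_Saline and 540.5 ± 39.4 CPM in LAM (-0.99, adjusted p = 0.0093 by edgeR). It was not called without Sham_Saline replicate 3 (adjusted p = 0.0589) or LAM replicate 3 (adjusted p = 0.0872). In the dorsal column, antioxidant and peroxide comparisons edgeR called 0% of all genes, so none of these lists could hold a called gene.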

How the data were processed

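Counts per gene and FPKM values were deposited by the authors as 2 tables of the whole series, and every column was matched to a sample by its name. Per the labels' protocols, the mRNA libraries kept strand information and gave 100-base reads from 1 end, with 6 libraries on each of 3 lanes. The submitters' processing notes name TopHat2 2.0.12, Bowtie2 2.2.3, SAMtools 0.1.19, HTSeq 0.6.0, edgeR 3.8.6, limma 3.22.7, R 3.1.1, FastQC 0.10.1 and build mm10, with no role or order. The deposited counts are whole numbers with no gene below a mean of 10.1. The deposited FPKM of the 9 genes are their counts times 1 factor per gene and 1 per sample, so both tables hold the same reads. One group's titles spell hydrogen peroxide with a zero, and Sham_H2O2 is written here.

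The main test was the quasi-likelihood F-test of edgeR 4.0.16 (R 4.3.3) after TMM scaling, without a block and with the 18 samples fitted together. None of the 15730 genes fell to filterByExpr. Benjamini-Hochberg adjustment ran over the whole table with a threshold of 0.05. Each SE is the size of the log2 fold change over the root of its F statistic, and 95% intervals use the t distribution of the fit. Log2 CPM used a prior count of 2. An exact permutation of 3 against 3 samples gives no p below 0.10. Alternatives were DESeq2 1.42.0, at least 10 counts in every sample, no filter, the groups of a comparison alone, a block for the replicate number, a threshold of 0.10, limma 3.58.1 on log2(FPKM + 1) and log2(FPKM + 0.1), and leaving out each sample. Offsets for GC share and length, from the longest GENCODE M21 transcript of 15648 genes and splines with 5 degrees of freedom, were added after the data were seen. Same-numbered samples shared a lane and were different mice. Their deviations from group means correlated between -0.65 and 0.56 over genes. All 3 pairs were over 0.1 only in Sham_Saline against LAM (0.24, 0.42 and 0.27), so the fit with a block is given beside that comparison. Fits were tested on simulated data. Coding sequences and promoter windows were read with Biopython 1.88 and figures drawn with matplotlib 3.10.9. The labels' protocols name no molecular identifiers, so 2 reads may come from 1 molecule.

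The genes and the lists were chosen with earlier results of these data known. Named were all Mrgpr genes, the members of each list that passed (all of them where 5 or fewer did), markers of cell types, and the 3 genes most correlated with each receptor of at least 50 mean counts. Which fold changes are printed (38 of 63) was chosen after their values were seen. Of the lists of other cell types, edgeR called 0 genes in any comparison for mast cells (summed CPM over the 18 samples 79.3 to 106), smooth muscle and pericytes (366 to 529), fibroblasts (835 to 1509), satellite glia (865 to 1402), Schwann cells (6281 to 10338), macrophages (33.4 to 53.4), skeletal muscle (6.11 to 1171) and red blood cells (164 to 840). Of 9 markers of peptidergic nociceptors, Adcyap1 was the 1 called. The share of all genes called by edgeR ran from 0% to 3.32% over the comparisons.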

Additional observations from a re-analysis of the deposited data

Results flagged for a closer look

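The FPKM table holds a feature that the count table does not, Mrgprx3-ps, a pseudogene by its name, and it was singled out because it carries signal outside the data tested. Its mean over the 18 samples was 33.5 FPKM, above the 28.8 FPKM of Mrgprd. Its identifier has no entry in the GENCODE M21 annotation, which lists the symbol under another one, so no position is given, and reads from related genes were not told apart from its own.

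It was also singled out because its changes after the 2 injuries differed by a test of the difference. It measured 39.9, 32.8 and 34.6 FPKM in Sham_Saline and 29.0, 26.0 and 29.1 FPKM in SNA_Saline, and 32.2, 34.5 and 32.4 FPKM in LAM and 40.6, 42.7 and 38.5 FPKM in DCA. Neither pair of groups overlapped, which held in these directions for 9.69% and 12.5% of 12943 features singly and for 3.14% jointly. Neither change passed by itself (-0.34, adjusted p = 0.0649, and 0.29, adjusted p = 0.637, by limma). On log2(FPKM + 1) the difference between the sciatic and the dorsal column change was -0.63 (adjusted p = 0.0256 by limma, Benjamini-Hochberg over 12943 features with a mean of at least 1 FPKM, of which 1.5% were called). On log2(FPKM + 0.1) it was -0.65 (adjusted p = 0.0331 by limma). Without Sham_Saline replicate 1 it was -0.55 (adjusted p = 0.0234 by limma, with 27.8% of features called). Leaving out each of the 12 samples in turn, an alternative chosen after seeing the data, gave -0.69 to -0.55, and the call was lost in 7 of 12 (without SNA_Saline replicate 1 or 2, any LAM replicate, or DCA replicate 1 or 2), with an adjusted p of up to 0.0861 by limma. In SNA_NAC it measured 30.2, 27.5 and 27.0 FPKM and in Sham_H2O2 38.1, 36.4 and 32.1 FPKM.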

How the results depend on the processing

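Of the 63 fold changes (9 genes in 7 comparisons), 31 changed sign under at least 1 alternative and 16 under one that left out no sample, and none of them was called with all samples. Among the 38 printed, 11 changed sign. Against Sham_Saline, SNA_Saline gave Mrgprb4 0.00445 with the replicate block and 0.15 and 0.22 on log2(FPKM + 1) and log2(FPKM + 0.1). Mrgprb5 was at -0.0017 and -0.0013 on those scales and at -0.19 with the GC and length offsets with and without the block. Sham_H2O2 gave Mrgpre 0.026 and 0.022 and Mrgprx1 -0.078 and -0.049 with the offsets without and with the block. The difference between injuries gave Mrgpre 0.049 and 0.052 with them, and Sham_Saline against LAM gave it -0.15 in both. The count of Mrgpr genes called in SNA_NAC against Sham_Saline, 0 at first, was 1 at an adjusted p under 0.10 and 1 with the offsets with and without the block (Mrgpra2b each time), and in Sham_Saline against LAM it was 1 by DESeq2 (Mrgprf). The shares of all genes called in these settings were 8.19%, 7.22% and 7.8% for the former and 7.25% for the latter. The replicate block alone left all 7 counts at 0. Of all genes, edgeR called 430 in SNA_Saline against Sham_Saline, 863 were called by DESeq2, 65 from those 2 groups alone and 1166 with the offsets. In SNA_NAC against Sham_Saline these counts were 522, 1223, 68 and 1221, in Sham_Saline against LAM 11, 1141, 1 and 26, and in the difference between injuries 254, 1723, 151 and 797 (118 with the block).

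Leaving out each sample in turn, the ranges in SNA_Saline against Sham_Saline were -0.39 to 0.099 for Mrgpra2a, -0.36 to 0.86 for Mrgprb4, -0.046 to 0.16 for Mrgprb5 and -0.59 to 0.23 for Mrgprx1. In Sham_H2O2 against Sham_Saline they were -0.49 to 0.20 for Mrgprd and -0.21 to 0.61 for Mrgprx1, and in SNA_NAC against Sham_Saline -0.37 to 0.24 for Mrgprd and -0.39 to 0.43 for Mrgprx1. The count of genes called ranged from 0 to 3 in SNA_NAC against Sham_Saline and from 0 to 2 in Sham_Saline against LAM, and the highest counts came without Sham_Saline replicate 1. Printed values that kept their sign also moved: Mrgprb5 ranged from -0.51 to -0.07 in DCA against LAM and from -0.91 to -0.48 in Sham_Saline against LAM, and Mrgprf from 0.99 to 1.93 in the latter. The causes were not tested. The minimum of 10 counts removed Mrgpra2a and Mrgprf, and counts as low as 5 limit what can be said of Mrgprf.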
